A study of Homo sapiens with 5 samples.

Results

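This account covers 37 genes of the actin cytoskeleton and of the contractile programme linked to serum response factor (SRF), measured in MCF10A SAM cells with and without forced expression of JUN. The genes were listed by symbol for what their products do, with no measured value in the rule but with earlier results of these data known, and all 37 were found among the 23459 genes of the table. MCF10A is an immortal, non-tumour human breast epithelial line, and in its SAM derivative a dead Cas9 coupled to VP64 (dCas9-VP64) works with MCP-p65-HSF1 to switch on whichever gene a guide RNA points to. Both groups carried these activators and grew in the same medium with horse serum, insulin, hydrocortisone, cholera toxin and EGF. The NTC group (3 libraries) carried a non-targeting control guide and the sgJUN#1 group (2 libraries) carried a guide for the JUN promoter. SAM cells came from picked single clones, and the labels do not say whether both groups came from the same clone, so a trait of a clone and the effect of the guide cannot be told apart. The study describes its sequencing replicates as biological, while the labels do not say whether the libraries of a group came from separate cultures, so the p-values measure the spread between these libraries. The comparison addressed how raised JUN alters gene expression in these cells.

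Actin exists as free monomers and as filaments that crosslinkers, tropomyosins and myosin II turn into contractile bundles. The coactivators MRTFA and MRTFB bind free actin monomers. When monomers are used up by filament growth, the coactivators enter the nucleus, pair with SRF on a short element called the CArG box and switch on actins, transgelins, calponins, filamins and SRF itself. In the breast, high levels of smooth muscle actin and calponin mark the contractile myoepithelial cells that surround the milk ducts. Filament tension is also known to promote nuclear entry of YAP, which acts through TEAD factors, while JUN is a subunit of the factor AP-1.

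To show where the known control elements lie in these genes, the 300 bases around each RefSeq transcript start (250 before and 50 after, assembly GRCh38.p14) were searched on both strands. Windows were given for 34 of the 37 members, 79 windows in all, and ACTB, TAGLN and MYL9 had none. The CArG box was present in 12 of the 79 windows (15.2%), against 1.29% of 35116 windows of all genes, and the 10 genes holding it were ACTG1, ACTN1, CNN2, FHL1, FHL2, FLNA, MYLK, SRF, TGFB1I1 and TPM4. Because the list was drawn up around SRF, that share is a description and not independent of how the genes were picked. The sites shown here belong to members whose values are given in full in the following paragraphs, or to TPM4, which is compared with its paralogs. FHL2 held a further CArG box (chr2:105438595-105438624, minus strand), which is not shown. That box lay in windows of different starts and was counted in each. Capitals mark the CArG box, and each line runs 5′ to 3′ on the gene's own strand with 10 bases on either side.
ACTG1 (chr17:81512874-81512903, minus strand): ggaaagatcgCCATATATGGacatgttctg
SRF, upstream site (chr6:43171229-43171258, plus strand): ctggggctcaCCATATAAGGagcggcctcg
SRF, downstream site (chr6:43171249-43171278, plus strand): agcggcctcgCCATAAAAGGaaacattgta
CNN2 (chr19:1026509-1026538, plus strand): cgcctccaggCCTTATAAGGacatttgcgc
FLNA (chrX:154374709-154374738, minus strand): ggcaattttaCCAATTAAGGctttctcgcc
TPM4 (chr19:16067355-16067384, plus strand): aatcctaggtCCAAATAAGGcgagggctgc
MYLK (chr3:123620623-123620652, minus strand): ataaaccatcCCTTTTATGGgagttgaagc
FHL2 (chr2:105399091-105399120, minus strand): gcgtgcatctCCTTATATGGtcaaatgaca

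The AP-1 heptamer (TGACTCA or TGAGTCA, which are reverse complements) was in 7 of the 79 windows (8.86%, against 4.95% of all windows), in the genes CAPG, FHL1, MRTFB, PALLD and TAGLN2. The site of FHL1 lay in windows of different starts and was counted in each. The TEAD hexamer (GGAATG or its reverse complement CATTCC) was in 16 windows (20.3%, against 14% of all windows), from 15 genes that included ACTA2, MYLK, PALLD and FHL2. In the members' windows no match of one of the 3 motifs overlapped a match of another. One site of each kind is shown, with the motif in capitals, because PALLD and ACTA2 are among the members treated in full.
PALLD, AP-1 heptamer (chr4:168832033-168832059, plus strand): cggagcctccTGAGTCAcccggcgggc
ACTA2, TEAD hexamer (chr10:88952941-88952966, minus strand): gcagaccagtGGAATGcagtggaaga
A match of letters does not show binding, and a window without a match says nothing about the factor. Positions of sites are on GRCh38.p14, whereas gene positions in the rest of the text are on GRCh37, the assembly behind the hg19 alignment, and the assemblies were not mixed.

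The libraries held from 2455627 to 4988062 counts, and 3 counts corresponded to between 0.601 and 1.22 CPM (counts-per-million) of these unscaled totals. All other CPM values were scaled with TMM factors. JUN, checked first, had 91, 89 and 42 counts in the NTC libraries and 831 and 742 in the sgJUN#1 libraries (log2 fold change 3.25, SE 0.484, edgeR adjusted p = 0.0733), so its level followed the labels without passing the threshold of 0.05 over all genes. All 10 epithelial markers passed the filter on low counts, although KRT14 had only 0.826 to 3.26 CPM and TP63 only 3.10 to 7.51 CPM. Their summed level was 1367 to 1694 CPM in NTC and 961 to 2320 CPM in sgJUN#1, and most of it came from KRT6A, KRT7 and KRT5. Single epithelial markers differed more than the sum. The adhesion molecule EPCAM had 23.7, 7.33 and 23.3 CPM in NTC and 144 and 56.5 CPM in sgJUN#1 (log2 fold change 2.44, SE 0.514, edgeR adjusted p = 0.210), a larger difference than that of any tested member. The keratin KRT17 was also above NTC in both sgJUN#1 libraries (log2 fold change 1.80, edgeR adjusted p = 0.628), and KRT14 and KRT7 were below it (-1.16 and -0.55). KRT86, which overlaps KRT7 on the same strand, held 8.5 to 15.3 times as many counts as KRT7. CDH1, which codes for E-cadherin, was higher on average with overlapping libraries (0.85). Of 7 markers of smooth muscle or myoepithelial cells, ACTA2 (also a member) and MYH11 passed the filter, and the list summed to 47.3 to 70.4 CPM in NTC and 70.2 to 84.4 CPM in sgJUN#1. NDE1, which overlaps MYH11 on the opposite strand, held 1.54 to 2.08 times as many counts. Of the markers under the filter, CNN1, ACTG2 and DES had at most 1 count in any library, LMOD1 at most 6 and OXTR at most 11. Of 8 fibroblast markers, DCN, PDGFRA and VIM passed. The list summed to 723 to 909 CPM in NTC and 618 to 1065 CPM in sgJUN#1. Most of this sum came from VIM, at 718, 522 and 423 CPM in NTC and 438 and 847 CPM in sgJUN#1. PDGFRA was below every NTC library in both sgJUN#1 libraries (log2 fold change -0.26, edgeR adjusted p = 0.769). COL1A1, COL1A2, COL3A1, LUM and PDGFRB were under the filter, and COL1A2 was at 0 in 4 libraries and had 1 count in the other. The 4 endothelial markers summed to 9.35 to 12.2 and 7.87 to 9.91 CPM, and only VWF passed. The 4 immune markers summed to 10.2 to 29.1 and 17.5 to 21.8 CPM, and CD3E was at 0 throughout. CD14 and CD68 passed the filter. CD68 was above every NTC library in both sgJUN#1 libraries (log2 fold change 1.26, edgeR adjusted p = 0.416). CD14 was lower on average with overlapping libraries (-1.12). The part of such markers in the results was not tested. In bulk RNA, fewer cells of a type and less RNA per cell cannot be told apart.

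Of the 37 members 35 had enough counts to be tested. The smooth muscle calponin CNN1 (1, 1 and 0 counts in NTC, 0 and 1 in sgJUN#1) and the muscle filamin FLNC (1, 3 and 1 counts in NTC, 7 and 9 in sgJUN#1) were under the filter. FLNC was higher in both sgJUN#1 libraries, from an NTC level at or under the floor of 3 counts. No member passed an edgeR adjusted p of 0.05, a threshold that 28 of 13616 tested genes (0.206%) did pass. On average 16 members were higher and 19 lower in sgJUN#1. Their median log2 fold change was -0.06, against -0.01 over all tested genes. The members were not shifted as a block in one direction. At an unadjusted p under 0.05, 2 members were higher (ACTA2 and TPM2, 5.71% of the 35, against 4.02% of all genes) and 4 were lower (TPM1, FLNA, CNN2 and PALLD, 11.4%, against 4.36%). The sgJUN#1 libraries lay above every NTC library for 8 members (22.9%, against 12.2% of all genes) and below every NTC library for 7 (20%, against 12.8%). A log2 fold change of at least 0.5 either way was seen for 9 members (25.7%, against 20% of all genes) and of at least 1 for TPM1 alone (all genes 4.94%). The median size of the log2 fold change was 0.35 for members and 0.23 for all tested genes.

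**Figure D1:**
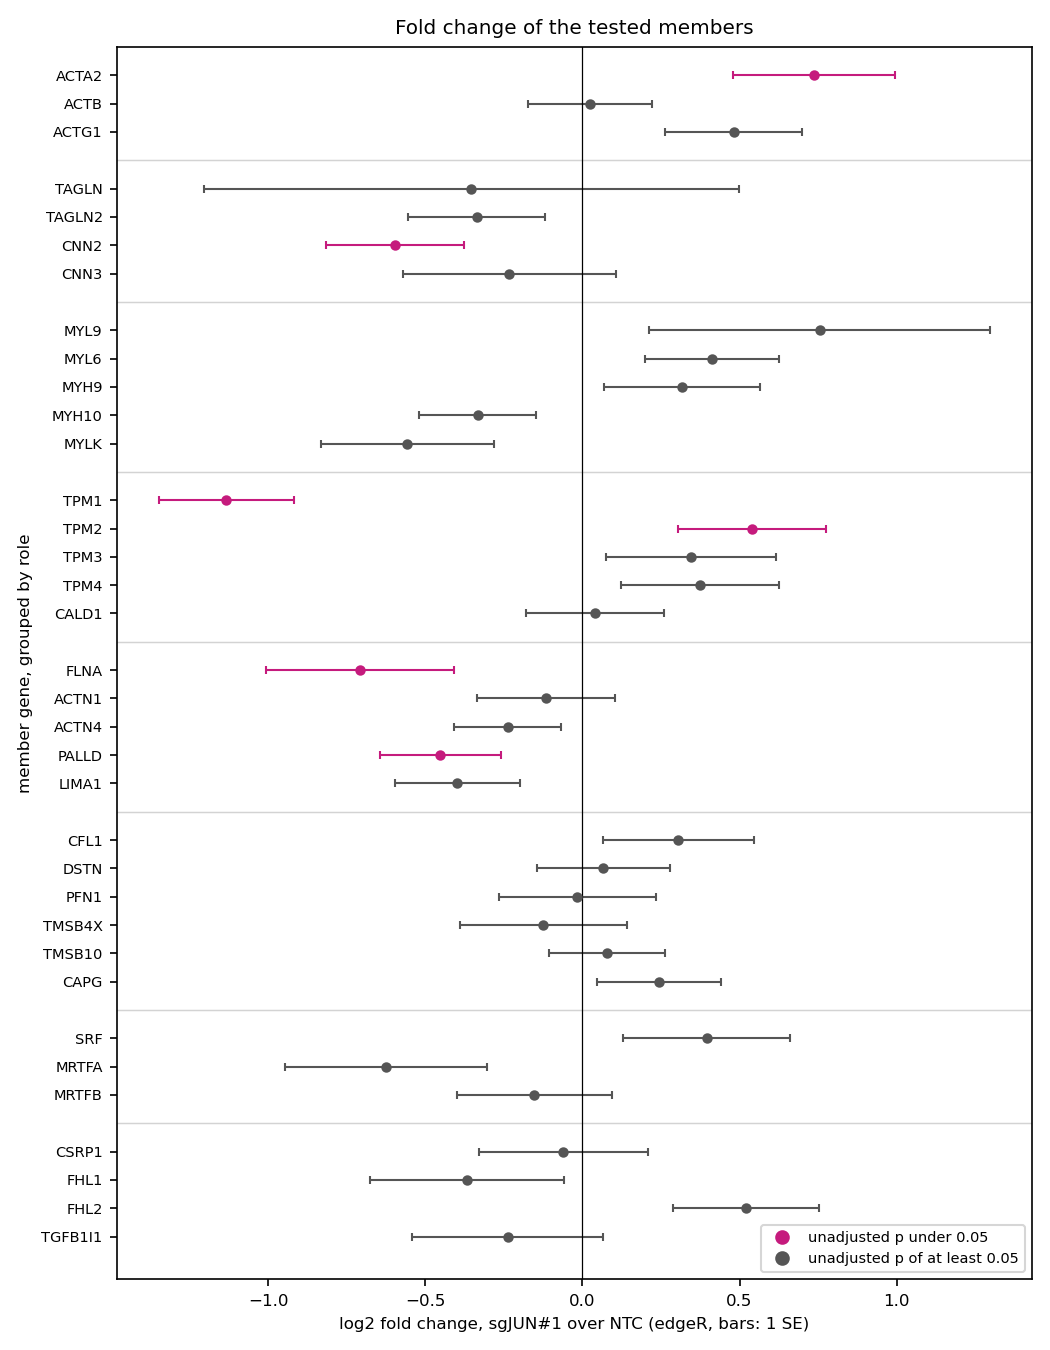
Log2 fold change of sgJUN#1 over NTC (x axis, edgeR, bars 1 SE) for the 35 tested members (y axis, in blocks by role). The 6 members with an unadjusted p under 0.05 are coloured, with TPM1 farthest to the left at -1.13 and ACTA2 at 0.74, and no member passed the adjusted threshold.

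The tropomyosins held the largest difference of the list. These proteins lie along the actin filament and govern which myosins and severing factors reach it. TPM1 (Entrez 7168, GRCh37 chr15:63334819-63364114) had 74.5, 85.9 and 96.7 CPM in the NTC libraries, and in the sgJUN#1 libraries 41.5 and 36.5 CPM. The groups did not overlap, and the lowest NTC library was well above the higher sgJUN#1 library. Its mean level was 85.7 ± 11.1 CPM (SD, n = 3) with the control guide and 39.0 ± 3.53 CPM (SD, n = 2) with the JUN guide, a 2.19-fold lower level (log2 fold change -1.13, SE 0.215). This had the smallest p of the list, 0.000424 unadjusted in edgeR, with an edgeR adjusted p of 0.106. TPM1 was the single member that passed under other tools, with an adjusted p of 0.00933 in DESeq2, where 136 of 13950 genes passed (0.975%), and of 0.0129 in edgeR without a filter on low counts, where 148 of 19587 genes passed (0.756%). With limma-voom its adjusted p was 0.119, and over all alternatives the range was 0.00933 to 0.569.

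The other tropomyosins stood higher in sgJUN#1. TPM2 (chr9:35681989-35690053), which like TPM1 codes for forms found in muscle and non-muscle cells, was at 80.6, 59.4 and 49.5 CPM in NTC and 89.0 and 94.8 CPM in sgJUN#1 (log2 fold change 0.54, SE 0.236, unadjusted p = 0.0461, edgeR adjusted p = 0.588). Both sgJUN#1 libraries exceeded the highest NTC library. TPM3 was at 179.9, 187 and 100.5 CPM in NTC and 204 and 190.3 CPM in sgJUN#1 (log2 fold change 0.35, edgeR adjusted p = 0.779). TPM4 was at 254, 318 and 174 CPM in NTC and 323 and 319 CPM in sgJUN#1 (log2 fold change 0.37, edgeR adjusted p = 0.744). For both genes the sgJUN#1 libraries were above NTC by a narrow margin over replicate 2, and the difference in means came largely from a low NTC replicate 3. Without that library the log2 fold changes were 0.11 for TPM3 and 0.17 for TPM4. RefSeq names 9 pseudogenes of TPM3, and the 1 found in the table held 2.59% as many counts as the gene.

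Seen as a share, TPM1 gave 12.7%, 13.2% and 23.0% of the summed CPM of TPM1 to TPM4 in the NTC libraries and 6.30% and 5.70% in the sgJUN#1 libraries. The summed level itself overlapped between groups, at 589, 650 and 421 CPM in NTC and 658 and 641 CPM in sgJUN#1. These shares are of reads near transcript ends and were not corrected for length. Caldesmon (CALD1), which binds actin, myosin and tropomyosin, overlapped between groups, at 312, 304 and 352 CPM in NTC and 267 and 398 CPM in sgJUN#1 (log2 fold change 0.04, SE 0.219).

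**Figure D2:**
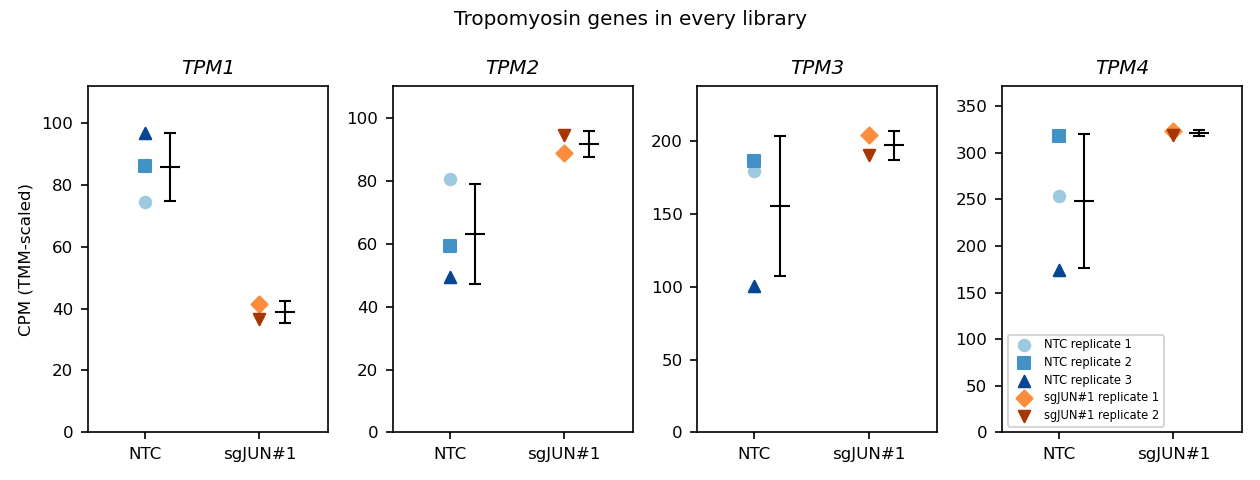
CPM of TPM1, TPM2, TPM3 and TPM4 (y axes, from 0) in each library of the NTC and sgJUN#1 groups, with the mean ± SD of each group as a bar beside the points. Both sgJUN#1 points lie at 36.5 to 41.5 CPM for TPM1, under all NTC points, and above all NTC points for the other genes, by a narrow margin for TPM3 and TPM4.

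The actins differed from one another. ACTA2 (Entrez 59, chr10:90694831-90751096), the smooth muscle actin, was at 29.2, 47.6 and 30.8 CPM in NTC and 53.7 and 65.1 CPM in sgJUN#1 (log2 fold change 0.74, SE 0.258, unadjusted p = 0.0181, edgeR adjusted p = 0.459). Both sgJUN#1 libraries were above NTC, where replicate 2 was the highest. The annotated span of ACTA2 overlaps STAMBPL1 and FAS on the opposite strand, whether counting used strand is not stated, and both neighbours stood in the same direction, with log2 fold changes of 0.63 and 0.57. Counts of STAMBPL1 were 1.26 to 1.56 times those of ACTA2 and counts of FAS 0.829 to 1.25 times, so reads of ACTA2 and of its neighbours cannot be told apart.

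The cytoplasmic actins are the building blocks of most filaments in non-muscle cells. ACTB (chr7:5566040-5603533) was at 573, 539 and 474 CPM in NTC and 602 and 473 CPM in sgJUN#1 (log2 fold change 0.02, SE 0.197, edgeR adjusted p = 0.983). Its sgJUN#1 libraries bracketed the whole NTC range. ACTG1 (chr17:79476439-79490873) was at 2412, 1973 and 1592 CPM in NTC and 3145 and 2415 CPM in sgJUN#1 (log2 fold change 0.48, SE 0.219, unadjusted p = 0.0544, edgeR adjusted p = 0.609). The sgJUN#1 libraries did not overlap NTC, yet replicate 2 exceeded the highest NTC library only barely, and without sgJUN#1 replicate 1 the log2 fold change was 0.28. Reads of actins can fall on near-identical copies: RefSeq names 14 pseudogenes of ACTB, none of them in the table, and 21 of ACTG1, of which 4 were in the table with 0.428% as many counts as ACTG1.

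SRF and its coactivators sit at the head of this programme. SRF (Entrez 6722, chr6:43139007-43149244) was at 111, 119.7 and 65.7 CPM in NTC and 118 and 141 CPM in sgJUN#1 (log2 fold change 0.40, SE 0.267, edgeR adjusted p = 0.744). The groups overlapped, and NTC replicate 3 was the low library, without which the log2 fold change was 0.17. MRTFA (Entrez 57591, chr22:40806285-41032723) was at 36.0, 63.5 and 82.3 CPM in NTC and 40.04 and 38.6 CPM in sgJUN#1 (log2 fold change -0.62, SE 0.321, edgeR adjusted p = 0.663). Its sgJUN#1 libraries were close together inside an NTC range of 2.28-fold, and its log2 fold change was -0.90 without NTC replicate 1 and -0.32 without NTC replicate 3. SGSM3, which overlaps MRTFA on the opposite strand, held 0.162 to 0.231 times as many counts. MRTFB (Entrez 57496, chr16:14165176-14360630) was at 53.4, 88.3 and 68.3 CPM in NTC and 67.9 and 57.2 CPM in sgJUN#1 (log2 fold change -0.15, SE 0.246, edgeR adjusted p = 0.911). Both of its sgJUN#1 libraries lay within the NTC range. For SRF and both coactivators the fold size between groups was smaller than that of the highest over the lowest NTC library. The values were 1.32 against 1.82 for SRF, 1.54 against 2.28 for MRTFA and 1.11 against 1.66 for MRTFB.

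Genes with a CArG box in a window near a start went both ways. Of the 10 holders, 4 were higher on average (ACTG1, TPM4, FHL2 and SRF) and 6 lower (ACTN1, CNN2, FHL1, FLNA, MYLK and TGFB1I1), with log2 fold changes from -0.71 to 0.52 and a median of -0.18. Among the 22 tested members with windows but no box, 10 were higher and 12 lower, with a median of -0.04. Holders of the AP-1 heptamer comprised 1 higher (CAPG) and 4 lower members (median -0.34). Tested members with windows but no heptamer comprised 13 higher and 14 lower (median -0.02). The 14 tested holders of the TEAD hexamer comprised 4 higher and 10 lower (median -0.13), and those without it 10 higher and 8 lower (median 0.07). With few members in each class these counts are descriptions, and no class was tested.

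The transgelins and calponins bind along filaments, and several are classic SRF targets. All 4 tested genes were lower on average in sgJUN#1 (median log2 fold change -0.35), while 49% of all tested genes were higher. That count is a description, since genes of a role are not replicates. CNN2 (Entrez 1265, chr19:1026585-1039067), the calponin of non-muscle cells, was at 52.8, 62.3 and 48.8 CPM in NTC and 39.2 and 32.6 CPM in sgJUN#1 (log2 fold change -0.60, SE 0.220, unadjusted p = 0.0231, edgeR adjusted p = 0.495). The groups did not overlap. RefSeq names 11 pseudogenes of CNN2, none of them in the table. TAGLN2 was at 207, 310.5 and 250.2 CPM in NTC and 199 and 206 CPM in sgJUN#1 (log2 fold change -0.34, SE 0.219, edgeR adjusted p = 0.740). Its higher sgJUN#1 library was just under the lowest NTC library. CNN3 overlapped between groups (log2 fold change -0.23), and its log2 fold change was -0.004 without NTC replicate 1 and -0.54 without NTC replicate 3.

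TAGLN, the transgelin used as an early smooth muscle marker, is named here for its spread after its values were seen. It had 11.6, 53.7 and 9.32 CPM in NTC and 26.01 and 10.4 CPM in sgJUN#1 (log2 fold change -0.35, SE 0.850, edgeR adjusted p = 0.949). NTC replicate 2 held 132 counts against 42 in each of the other NTC libraries, and without it the log2 fold change became 0.84. TAGLN therefore had no direction that held against single libraries. PCSK7, which overlaps it on the opposite strand, held 0.341 to 2.36 times as many counts (log2 fold change -0.12). MYL9, the regulatory light chain of smooth muscle and non-muscle myosin II and another SRF target, was also highest among NTC in replicate 2. MYL9 (chr20:35169900-35179850) was at 4.40, 17.9 and 6.21 CPM in NTC, from 16, 44 and 28 counts, with 11.4 and 19.7 CPM in sgJUN#1, from 55 counts in each (log2 fold change 0.76, SE 0.543, edgeR adjusted p = 0.759). Its log2 fold change was 1.51 without NTC replicate 2 and 0.33 without sgJUN#1 replicate 2.

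**Figure D3:**
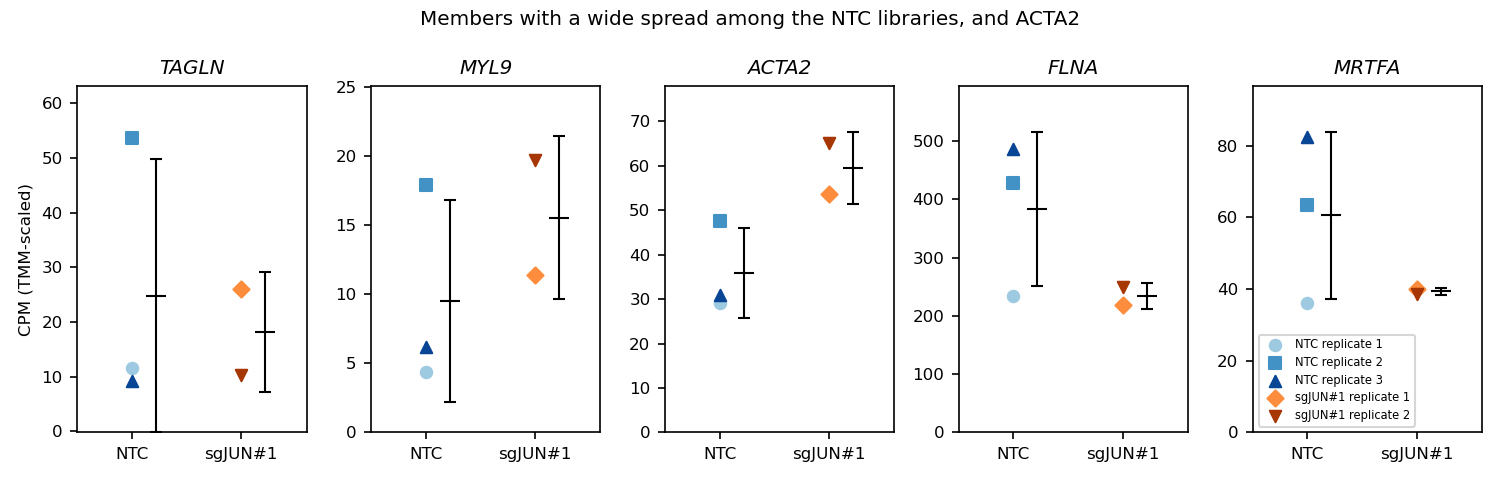
CPM (y axes, from 0) of TAGLN, MYL9, ACTA2, FLNA and MRTFA in each NTC and sgJUN#1 library, with the mean ± SD of each group as a bar beside the points. TAGLN at 53.7 CPM and MYL9 at 17.9 CPM stand out in NTC replicate 2, and FLNA and MRTFA are low in NTC replicate 1, at 234 and 36.0 CPM.

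The remaining myosin II genes were split. MYL6, the essential light chain, was at 354, 300.4 and 279.7 CPM in NTC and 349 and 480 CPM in sgJUN#1 (log2 fold change 0.41, SE 0.212, edgeR adjusted p = 0.663). Only replicate 2 of sgJUN#1 was above the NTC range, and without it the log2 fold change was 0.17. MYLK (chr3:123328896-123603179), the kinase that activates myosin II by phosphorylating its regulatory light chain, was at 31.6, 24.8 and 37.7 CPM in NTC and 18.0 and 25.4 CPM in sgJUN#1 (log2 fold change -0.56, SE 0.275, edgeR adjusted p = 0.646). The groups overlapped slightly, and the log2 fold change was -0.31 without sgJUN#1 replicate 1 and -0.81 without sgJUN#1 replicate 2. Its antisense gene MYLK-AS1 held 0.869 to 1.13 times as many counts and had a log2 fold change of -0.30, so the kinase and the antisense RNA cannot be told apart here. Of the heavy chains, MYH9 was higher on average with overlapping libraries (log2 fold change 0.32, SE 0.249). MYH10 was at 113, 118 and 107 CPM in NTC and 90.2 and 88.0 CPM in sgJUN#1 (log2 fold change -0.33, SE 0.186, edgeR adjusted p = 0.689). Its groups did not overlap. MYH10 shares part of its span with NDEL1 on the opposite strand, which held 0.917 to 1.39 times as many counts and had a log2 fold change of 0.20.

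The crosslinkers and scaffolds bundle filaments and tie them to adhesions. All 5 tested genes were lower on average in sgJUN#1 (median log2 fold change -0.40), while 49% of all tested genes were higher. Genes of a role are not replicates, so that count is a description. The remaining gene of this group, FLNC, was under the filter and was higher in both sgJUN#1 libraries. None of the 5 passed the adjusted threshold in edgeR, DESeq2 or limma-voom. FLNA (Entrez 2316, chrX:153576892-153603002), which joins filaments into networks, was at 234, 429 and 486 CPM in NTC and 219 and 250.1 CPM in sgJUN#1 (log2 fold change -0.71, SE 0.298, unadjusted p = 0.0404, edgeR adjusted p = 0.569). NTC replicate 1 lay between the sgJUN#1 libraries, and the other NTC libraries were well above them. PALLD (Entrez 23022, chr4:169418203-169849608), a scaffold of stress fibres, was at 106, 110.3 and 99.4 CPM in NTC and 72.2 and 81.9 CPM in sgJUN#1 (log2 fold change -0.45, SE 0.191, unadjusted p = 0.0412, edgeR adjusted p = 0.575). The groups were tight and did not overlap. CBR4, on the opposite strand within the same span, held 1.35 to 2 times as many counts as PALLD and had a log2 fold change of -0.11.

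LIMA1, which stabilises filament bundles, was at 228, 185 and 211 CPM in NTC and 171 and 145 CPM in sgJUN#1, without overlap (log2 fold change -0.40, SE 0.199, edgeR adjusted p = 0.651). ACTN4, a non-muscle alpha-actinin, had the tightest control values of the list, at 1129, 1112 and 1111 CPM in NTC. It was at 979 and 915 CPM in sgJUN#1 (log2 fold change -0.24, SE 0.171, edgeR adjusted p = 0.759), again without overlap. Its neighbour CAPN12 on the opposite strand held 0.703 to 0.822 times as many counts, with a log2 fold change of -0.14. ACTN1 overlapped between groups (log2 fold change -0.12, SE 0.220), and its log2 fold change turned to 0.068 without NTC replicate 2.

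Proteins that bind monomers or turn filaments over showed the smallest differences. The 6 genes, namely cofilin (CFL1) and destrin (DSTN), which sever filaments, profilin (PFN1), which feeds monomers to growing ends, the thymosins TMSB4X and TMSB10, which store monomers, and the capping protein CAPG, had log2 fold changes from -0.12 to 0.31 and a smallest edgeR adjusted p of 0.780. CFL1 was at 961, 889 and 561 CPM in NTC and 967 and 1019 CPM in sgJUN#1, so that sgJUN#1 was above NTC, but replicates 1 and 2 of NTC were close to it. CAPG was at 59.7, 63.5 and 67.2 CPM in NTC and 68.1 and 82.6 CPM in sgJUN#1, likewise above NTC by a narrow margin in replicate 1. DSTN, PFN1, TMSB4X and TMSB10 overlapped between groups.

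Among the LIM domain proteins, which attach to filaments or shuttle between adhesions and the nucleus, FHL2 stood apart from the others. FHL2 (Entrez 2274, chr2:105974169-106054970), an SRF target and cofactor, was at 66.6, 79.4 and 49.0 CPM in NTC and 90.0 and 95.9 CPM in sgJUN#1 (log2 fold change 0.52, SE 0.232, edgeR adjusted p = 0.596). Both sgJUN#1 libraries were above NTC. FHL1, CSRP1 and TGFB1I1 overlapped between groups and were lower on average, with log2 fold changes of -0.37, -0.06 and -0.24.

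**Figure D4:**
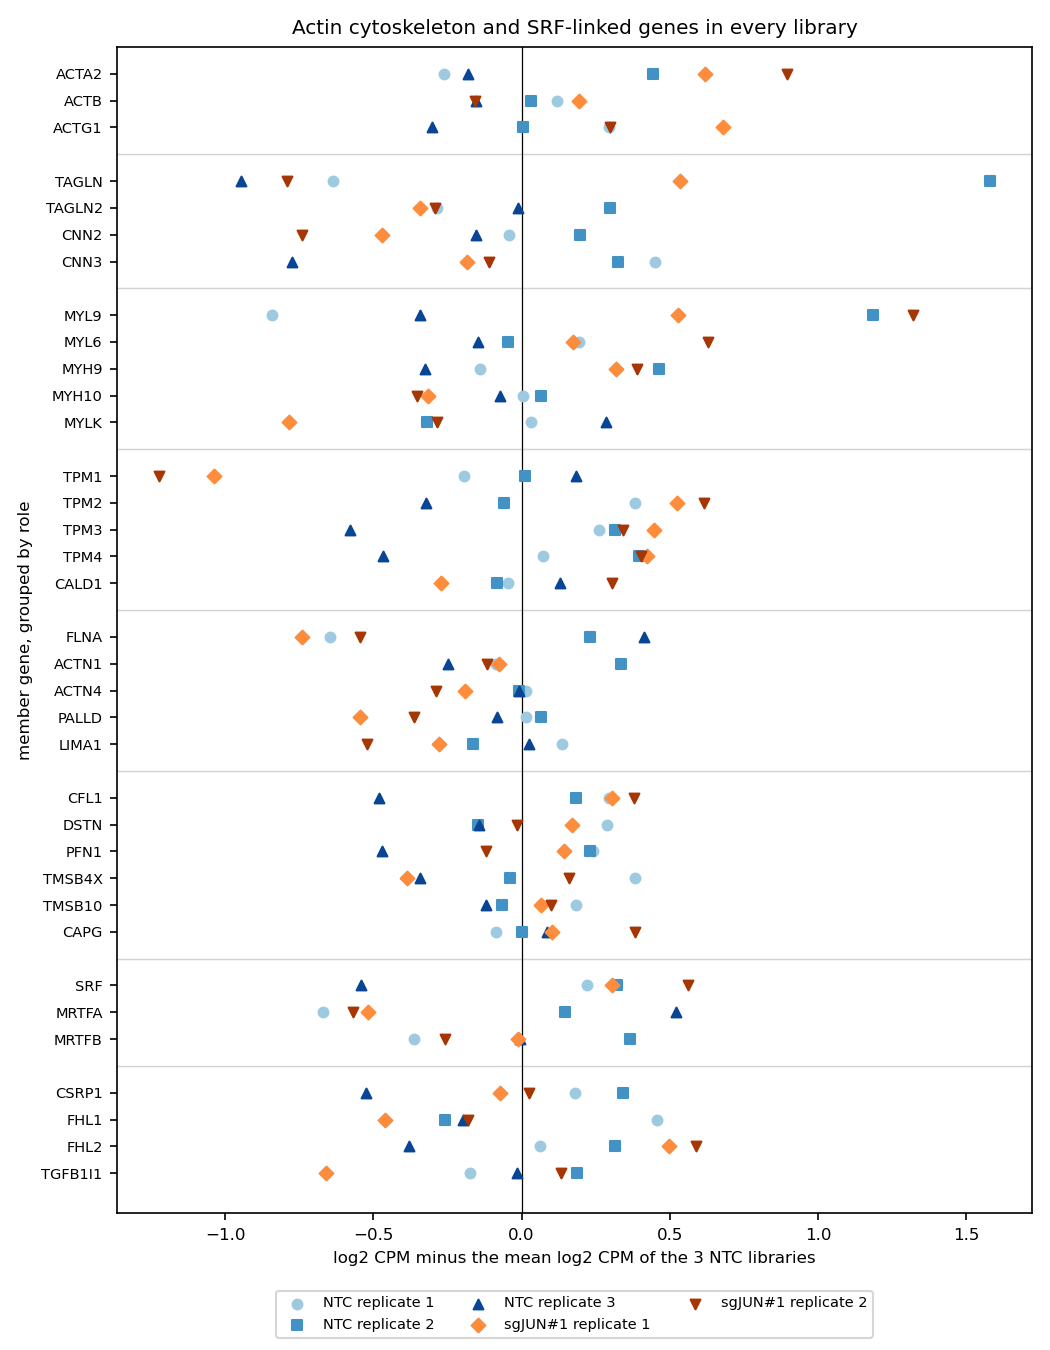
Log2 CPM of the 35 tested members in each library minus the mean log2 CPM of the 3 NTC libraries (x axis), with genes in blocks by role (y axis). Of the blue NTC symbols, replicate 3 is the lowest for 21 members and replicate 2 the highest for 16, and the orange sgJUN#1 symbols lie outside the NTC range for 15 members.

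The control libraries differed from each other in these genes. NTC replicate 3 was the lowest NTC library for 21 of the 35 members, against 35.3% of all tested genes. NTC replicate 2 was the highest for 16 members, against 29.3% of all tested genes. The highest NTC value was at least 2 times the lowest for 5 of the 35 members (TAGLN, MYL9, CNN3, MRTFA and FLNA), against 20.2% of all genes. A spread that wide was thus not more common among members than among all tested genes. It was at least 1.5 times the lowest for 20 members, and the share of all genes at that cut was not computed. The median over members of log2 CPM relative to the NTC mean was 0.03, 0.18 and -0.15 in NTC and -0.01 and -0.01 in sgJUN#1. Both sgJUN#1 libraries were thus in the middle of the NTC range, whose SD was 0.168.

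Leaving out 1 library at a time gave the range that single libraries allow. TPM1 stayed between -1.23 and -1.03 on the log2 scale, and ACTA2 between 0.60 and 0.98. CNN2 ranged from -0.74 to -0.47, PALLD from -0.54 to -0.36, MYH10 from -0.37 to -0.30 and TPM2 from 0.39 to 0.76. FLNA was at -0.97 without NTC replicate 1 and at -0.50 without NTC replicate 3. The smaller differences moved further in proportion, with MYH9 at 0.16 and CFL1 at 0.10 without NTC replicate 3, TAGLN2 at -0.18 without NTC replicate 2, FHL1 at -0.10 without NTC replicate 1 and CAPG at 0.11 without sgJUN#1 replicate 2. In all 10 members had a log2 fold change that turned sign under at least 1 of 12 alternatives, and 9 of them were at most 0.24 in size with all libraries, TAGLN being the exception. The other 25 kept 1 direction under all 12.

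**Figure D5:**
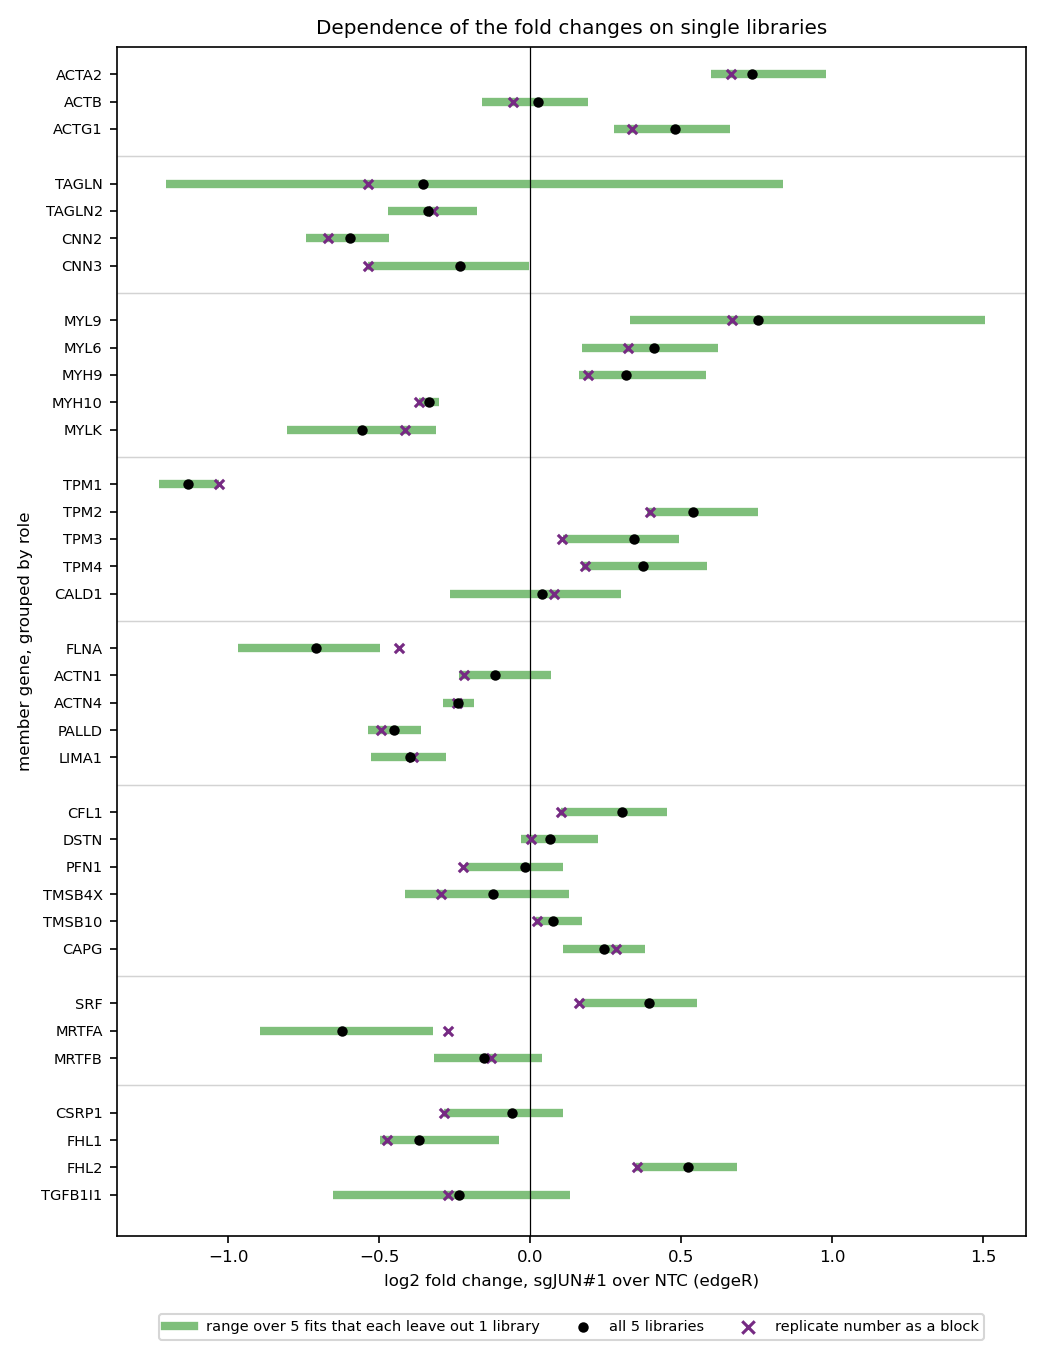
Log2 fold change of sgJUN#1 over NTC (x axis, edgeR) for the 35 tested members (y axis, in blocks by role). Black points use all 5 libraries, green bars span the 5 fits that each leave out 1 library, and crosses are the fit with the replicate number as a block. The bar of TPM1 runs from -1.23 to -1.03, that of TAGLN from -1.20 to 0.84.

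Other actin regulators gave the setting for these genes. Of 41 genes in 4 lists, 37 were tested, 24 were higher and 13 lower on average, and none passed the adjusted threshold in edgeR (median log2 fold change 0.09). The ARP2/3 complex, which nucleates branched filaments, had 8 of 9 genes higher (median 0.26), against 49% of all tested genes. The sgJUN#1 libraries were above every NTC library for 4 of the 9 genes, against 12.2% of all tested genes. NTC replicate 3 was the lowest control for 8 of the 9 genes, and without it 7 were higher (median 0.14). The formins, which elongate unbranched filaments, had 4 of 9 higher (-0.05), and the capping, severing and recycling list 8 of 13 (0.07). Further smooth muscle and SRF targets had 4 of 6 tested genes higher (0.09), and ACTG2, ACTC1, LMOD1 and DES were under the filter.

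Outside the listed members, 4 of these 37 genes had an unadjusted edgeR p under 0.05, 2 higher and 2 lower. Of all tested genes, 4.02% were higher and 4.36% lower at that threshold. MICAL2, an enzyme that oxidises nuclear actin and thereby aids SRF, was at 8.80, 15.9 and 15.1 CPM in NTC and 32.0 and 19.7 CPM in sgJUN#1 (log2 fold change 0.98, SE 0.328, edgeR adjusted p = 0.437). CAP1, which recycles cofilin-bound monomers, was at 218, 214 and 148 CPM in NTC and 276 and 268 CPM in sgJUN#1 (log2 fold change 0.49, SE 0.219, edgeR adjusted p = 0.596). For both genes the sgJUN#1 libraries were above every NTC library. The formin DAAM1 was at 134.5, 108 and 195 CPM in NTC and 81.1 and 52.2 CPM in sgJUN#1 (log2 fold change -1.13, SE 0.298, edgeR adjusted p = 0.281), and it was the 1 gene of these lists that passed with DESeq2 (adjusted p = 0.0486) and with edgeR without a filter (adjusted p = 0.0446). The formin FMNL1 had 17, 12 and 31 counts in NTC and 13 and 7 in sgJUN#1 (log2 fold change -1.08, SE 0.427, edgeR adjusted p = 0.530). Both formins were below every NTC library on the CPM scale.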

How the data were processed

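According to the labels and methods, the authors made QuantSeq 3′ forward libraries, trimmed reads with cutadapt 4.2, aligned them to hg19 with Bowtie2 2.3.5.1 and counted them over genes in R. What was deposited is a table of raw counts, not normalised, for each gene. Annotation, strand, multiple alignments and molecular identifiers were not given in the sources used here, so overlapping genes and copies can share reads, and the depth floor covers counting error only. Symbols (23308 of 23459 genes) came from NCBI gene names, positions from GENCODE v44lift37 and promoter sequences from RefSeq.

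The members and lists were chosen by function, with earlier results of these data known. Differential expression used the quasi-likelihood test of edgeR 4.0.16 (R 4.3.3) with TMM factors and filterByExpr, which kept 13616 genes and left out 9843. Groups came from sample titles and were the only term. P-values were adjusted by Benjamini-Hochberg over all tested genes, with 0.05 as the threshold. The SE was obtained from the log2 fold change and the square root of its F statistic, as their quotient. The biological coefficient of variation was 22.3%. The script was tested on simulated data. Values per library, log2 fold change, SE and adjusted p are given for SRF, MRTFA, MRTFB, the actins, members with an unadjusted p under 0.05, and the 6 largest differences each way. Members that did not overlap between groups are added, and the rest are given by range. Alternatives were DESeq2 1.42.0, limma-voom (limma 3.58.1), other scalings, other filters, a replicate block and leaving out each library. Each pair of libraries within a group differed by more than counting noise (chi-square per degree of freedom of at least 7.62), so none was treated as the same library deposited again. That check does not tell separate cultures from technical repeats. A further list of actin regulators is not reported here.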

Additional observations from a re-analysis of the deposited data

How the results depend on the processing

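The count of genes past the threshold over all genes was 28 with all libraries, 136 with DESeq2, 148 without a filter, 18 when every library had to hold at least 10 counts, and 103 with the replicate number as a block. Leaving out 1 library gave 10 (without NTC replicate 1) to 57 (without NTC replicate 3). The count of members past it was 0, became 1 (TPM1) with DESeq2 and 1 (TPM1) without a filter, and stayed 0 in the 5 fits that left out a library. The edgeR adjusted p of TPM1 was 0.0678 with the replicate block and at most 0.569 (without sgJUN#1 replicate 2). NTC replicate 3 has no partner, so the block in effect drops it. The correlation of replicate 1 minus 2 between groups was 0.0146, so the numbers were not read as pairs.

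The sign turned for TAGLN (0.12) and PFN1 (0.018) with limma-voom and for ACTB (-0.058) with the replicate block. Without single libraries, log2 fold changes ran from -1.20 to 0.84 for TAGLN, -0.22 to 0.11 for PFN1, -0.16 to 0.19 for ACTB, -0.41 to 0.13 for TMSB4X, -0.29 to 0.11 for CSRP1, -0.27 to 0.30 for CALD1, -0.23 to 0.068 for ACTN1, -0.030 to 0.22 for DSTN, -0.32 to 0.041 for MRTFB and -0.65 to 0.13 for TGFB1I1. The cause was not tested. The members' median was -0.22 with the block and -0.22 to 0.04 without single libraries. With 5 libraries of 2455627 to 4988062 counts and SEs of 0.171 to 0.850, small differences were not detectable. Large ones could also miss the threshold, as JUN did with a log2 fold change of 3.25 (edgeR adjusted p = 0.0733). A member that did not pass was therefore not shown to be unchanged.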
